A study of Homo sapiens with 6 samples.

Results

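Thrombospondins and related matricellular genes were followed in PC3 cells, an established line of human prostate cancer, after transient transfection with a Pre-miR precursor of miR-130a or with a negative control precursor. The 10 genes were THBS1, THBS2, THBS3, THBS4, COMP, SPARC, TNC, SPP1, CD47 and CD36. They were chosen by name, as the rows of the deposited table that carry exactly 1 of these symbols, and all 10 of them were found, 1 row each, among 22465 named genes. The choice of the highest row per gene therefore decided nothing here, but the list was drawn up with the changes of THBS1 and SPARC already known. Both arms comprised 3 arrays, the miR-130a arm and the negative control arm, and all cells were grown in the same medium with serum; the series describes 3 independent experiments. The sources used here give no time between transfection and RNA extraction, and all values come from 1 cell line.

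Matricellular proteins are secreted into the extracellular matrix, where they change how cells attach, move and receive growth factors rather than building fibres themselves. Thrombospondins fall into a trimeric subgroup, THBS1 and THBS2, whose type 1 repeats bind CD36 and restrain angiogenesis, and a pentameric subgroup, THBS3, THBS4 and COMP, which lacks those repeats. CD36 and CD47 are cell surface receptors for thrombospondin 1. In tumours these proteins are often made by stromal cells, and some carcinoma lines make them as well.

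The agent was miR-130a, a microRNA whose guide strand pairs with messenger RNAs through its seed. The hairpin of its gene and 3 mature relatives are shown because the seed is what the family shares. Capitals mark that seed, which is bases 2 to 8 of each mature sequence and occurs 1 time in the hairpin. Sequences are from RefSeq (GRCh38.p14), and the labels do not state the sequence of the commercial precursor.
MIR130A hairpin, chr11:57641198-57641286, plus strand: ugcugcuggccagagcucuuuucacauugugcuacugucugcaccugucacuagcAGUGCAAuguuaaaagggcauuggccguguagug
hsa-miR-130b-3p, chr22:21653354-21653375, plus strand: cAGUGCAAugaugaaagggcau
hsa-miR-301a-3p, chr17:59151149-59151171, minus strand: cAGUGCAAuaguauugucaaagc
hsa-miR-301b-3p, chr22:21653025-21653047, plus strand: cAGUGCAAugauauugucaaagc

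The values are log2 expression from RMA, so a difference of 1 is a doubling of array signal. Within the miR-130a arm, arrays correlated at r = 0.9964 to 0.9967 over all rows, whereas negative control 3 correlated with negative controls 1 and 2 at 0.9923 and 0.992, below the 0.9958 between those controls. Negative control 3 lay above the mean of the other controls by a median of 0.05 over all genes, by 0.11 over genes below the median level of all rows (4.995) and by 0.02 over genes above it. Each result is therefore also given without it where it bears on that result. The epithelial markers EPCAM, KRT8, KRT18, KRT19 and CDH1 were all above 4.995, with a mean of 8.817 to 8.874 on miR-130a arrays and 8.691 to 8.754 on control arrays. Among them KRT18 rose by 0.39 (adjusted p = 0.018), while CDH1 was 0.29 higher and KRT19 differed by -0.18 without passing (adjusted p = 0.0614 and 0.141). The prostate genes KLK3, KLK2 and TMPRSS2 lay nearer to that level, with a mean over the 3 genes of 5.374, 5.365 and 5.413 on miR-130a arrays and 5.321, 5.284 and 5.493 on control arrays. The fibroblast genes DCN and LUM averaged 2.83 and 2.28 with miR-130a and 2.95 and 2.30 in controls. The leukocyte gene PTPRC averaged 2.72 in both arms. The other fibroblast and leukocyte markers measured lay above 4.995. PDGFRA averaged 5.891 with miR-130a and 5.498 in controls, and PDGFRB 5.625 and 5.656. In the same order, CD14 averaged 5.107 and 5.201, CD3E 5.257 and 5.294, and CD68 9.723 and 10.177. The means of 4 fibroblast markers were 4.126, 4.192 and 4.157 with miR-130a and 4.09, 4.102 and 4.115 in controls, and PDGFRA among them rose by 0.39 (limma adjusted p = 0.00518). The means of the 4 endothelial markers ranged from 5.319 to 5.38 with miR-130a and from 5.327 to 5.454 in controls, none passing the test. Those of the 4 leukocyte markers ranged from 5.697 to 5.705 and from 5.797 to 5.902, CD68 being 0.45 lower (difference -0.45, adjusted p = 0.00325). All arrays are labelled PC3, so these are levels of the named genes in cultures of that line. Whether cells of another type were present was not tested.

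With miR-130a, 3 of the 10 genes rose and 0 fell at an adjusted p below 0.05 (limma, adjusted over 22465 genes); over all genes 4.23% passed, 2.48% higher and 1.74% lower. At an unadjusted p below 0.05, 4 of the 10 were higher and 0 lower, and 16.5% of all genes differed in either direction. Because the list was drawn up with part of its result known, nothing is read from its share. The 3 genes were THBS1 and THBS2, the trimeric thrombospondins, and SPARC. The median difference of the 10 genes was -0.01, and that over all genes was -0.01. In bulk RNA of a culture, a change in all cells and a larger change in some of them cannot be told apart.

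**Figure D1:**
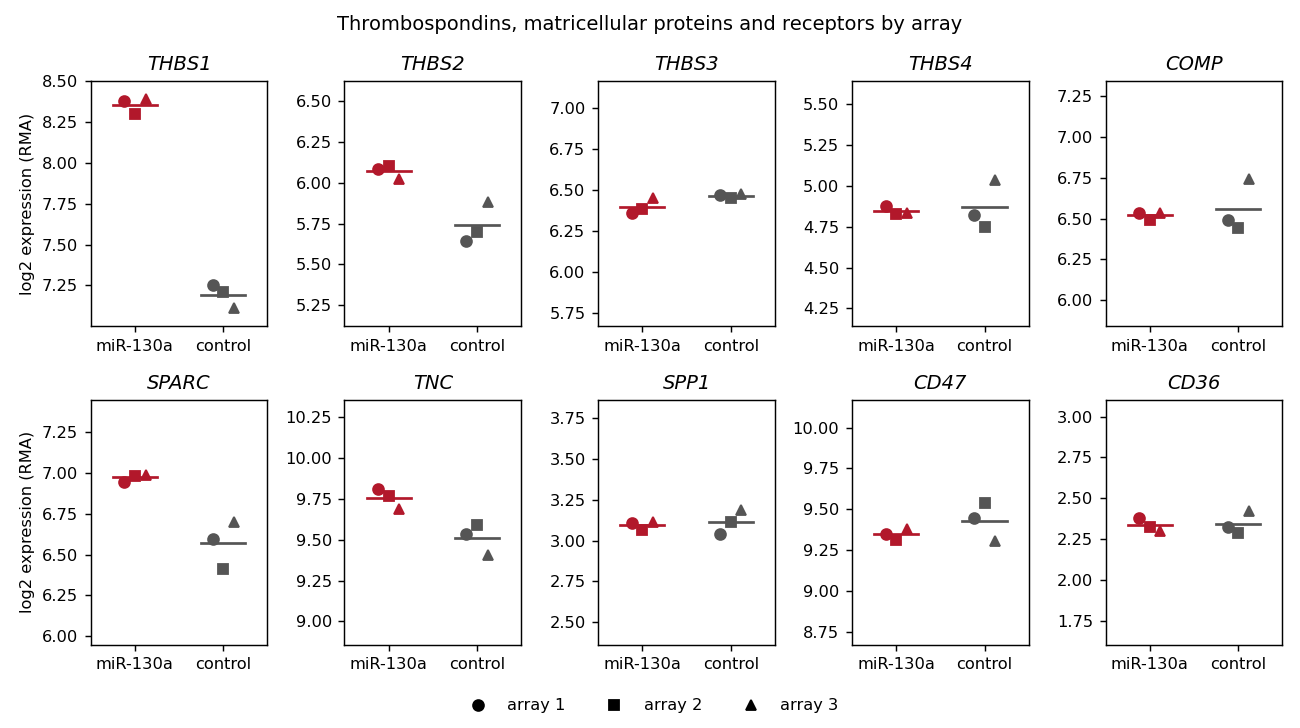
Log2 expression (y axis, RMA units, the same span of 1.5 in every panel) of each gene on the 3 miR-130a arrays (red, left) and the 3 negative control arrays (grey, right). Bars are means and symbols mark the array number. The labels do not say whether equal numbers share an experiment. The arms are apart in THBS1, THBS2, SPARC and TNC and overlap in the other 6 genes.

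THBS1 encodes thrombospondin 1, the secreted matrix glycoprotein known for restraining angiogenesis and for activating latent TGF-beta. Its log2 values were 8.38, 8.30 and 8.39 on miR-130a arrays 1, 2 and 3, against 7.26, 7.21 and 7.11 on negative control arrays 1, 2 and 3. Every miR-130a array lay more than 1 log2 unit above every control array, while the arrays of an arm stayed within 0.05 (SD, n = 3) with miR-130a and 0.07 (SD, n = 3) in controls. The rise was 2.24-fold (difference 1.16, SE 0.058, 95% interval 1.03 to 1.30, limma adjusted p = 0.000262), the 7th largest rise of all genes. Without negative control 3, the lowest of the controls, the difference was 1.12 (adjusted p = 0.00103). It passed in all 15 alternative settings, with a difference of 1.12 to 1.20. FSIP1, which overlaps THBS1 in the reference annotation, was at 4.24, 4.38 and 4.35 with miR-130a and at 4.05, 4.11 and 4.11 in controls, 0.23 higher (adjusted p = 0.0635), a difference smaller than that of THBS1.

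THBS2, the other trimeric member, which in mouse also restrains angiogenesis, was at 6.09, 6.10 and 6.02 on miR-130a arrays, against 5.64, 5.70 and 5.88 on control arrays. The arms did not overlap, with negative control 3 the nearest of the controls to the miR-130a arrays. The rise was 1.26-fold (difference 0.33, SE 0.072, 95% interval 0.16 to 0.50, adjusted p = 0.0497), at the edge of the threshold. Without negative control 3 the difference was 0.40 (adjusted p = 0.00729), and without miR-130a 1, miR-130a 2, miR-130a 3, negative control 1 or negative control 2 it did not pass (adjusted p = 0.195, 0.189, 0.152, 0.158 and 0.118).

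None of the pentameric thrombospondins passed. THBS3, known from mouse for a part in skeletal maturation, was at 6.36, 6.38 and 6.45 with miR-130a and at 6.47, 6.45 and 6.47 in controls. Its arms overlapped and the difference was -0.07 (95% interval -0.18 to 0.05, adjusted p = 0.639). MTX1, which overlaps THBS3 in the reference annotation, differed by -0.00487 (adjusted p = 0.991). THBS4, a thrombospondin of muscle, tendon and nervous tissue, was at 4.88, 4.83 and 4.83 with miR-130a and at 4.82, 4.75 and 5.03 in controls. The highest of these 6 values was negative control 3, and the difference was -0.02 (95% interval -0.20 to 0.16, adjusted p = 0.962). The THBS4 means, 4.85 with miR-130a and 4.87 in controls, lay below the median level of all rows (4.995). COMP, the cartilage oligomeric matrix protein, was at 6.54, 6.49 and 6.53 with miR-130a and at 6.49, 6.44 and 6.74 in controls, a difference of -0.04 (95% interval -0.23 to 0.15, adjusted p = 0.931). Negative control 3 was the highest of the 6 values in COMP as in THBS4, 0.27 and 0.25 above the mean of the other controls, and without it the differences of COMP and THBS4 turned to 0.05 and 0.06 (adjusted p = 0.409 and 0.402). The upper bounds of these 3 intervals lie below the lower bound for THBS1, but a contrast between the genes was not tested.

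SPARC encodes osteonectin, a collagen-binding protein that loosens cell adhesion. Its values were 6.95, 6.98 and 6.99 on miR-130a arrays, against 6.60, 6.41 and 6.70 on control arrays. The miR-130a arrays lay close together (SD 0.02, n = 3) and all above the more scattered controls (SD 0.15, n = 3). The rise was 1.32-fold (difference 0.40, SE 0.077, 95% interval 0.22 to 0.58, adjusted p = 0.0304). It passed without negative control 2 (adjusted p = 0.0417) and without negative control 3 (difference 0.47, adjusted p = 0.011), and did not pass without miR-130a 1, miR-130a 2, miR-130a 3 or negative control 1 (adjusted p = 0.115, 0.12, 0.141 and 0.0992).

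TNC, which encodes tenascin-C, a large matrix glycoprotein of wounds and tumour stroma, was at 9.81, 9.77 and 9.69 on miR-130a arrays and at 9.54, 9.59 and 9.41 on control arrays. Its arms did not overlap, the miR-130a arrays being higher, a pattern shown by 11.7% of all genes in that direction and by 4 of the 10 genes here. The difference of 0.24 (SE 0.065, 95% interval 0.09 to 0.39) did not pass (adjusted p = 0.091). It passed in 3 of 15 alternative settings, after a second quantile normalization (adjusted p = 0.0456), with array weights (adjusted p = 0.0285) and with a trended, robust variance prior (adjusted p = 0.0394). Without negative control 3, the lowest control, the difference was 0.19 (adjusted p = 0.0666).

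SPP1, which encodes osteopontin, a ligand of integrins and CD44, was at 3.11, 3.06 and 3.11 with miR-130a and at 3.04, 3.11 and 3.19 in controls. CD36, the scavenger receptor that binds the type 1 repeats, was at 2.38, 2.32 and 2.30 with miR-130a and at 2.32, 2.29 and 2.42 in controls. Both rows lay below the median level of all rows, and no detection calls were used here to say whether either gene was expressed. The differences were -0.02 (95% interval -0.15 to 0.11) for SPP1 and -0.01 (95% interval -0.14 to 0.12) for CD36, with adjusted p of 0.959 and 0.978.

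CD47, the receptor that also signals to macrophages through SIRPA to prevent engulfment, was at 9.35, 9.31 and 9.38 with miR-130a and at 9.44, 9.54 and 9.30 in controls. Negative control 3 was below all miR-130a arrays, whereas the other controls were above all of them. The difference was -0.08 (95% interval -0.24 to 0.07, adjusted p = 0.681), and -0.15 without negative control 3 (adjusted p = 0.109). SIRPA, its partner on macrophages, differed by 0.07 (adjusted p = 0.702).

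**Figure D2:**
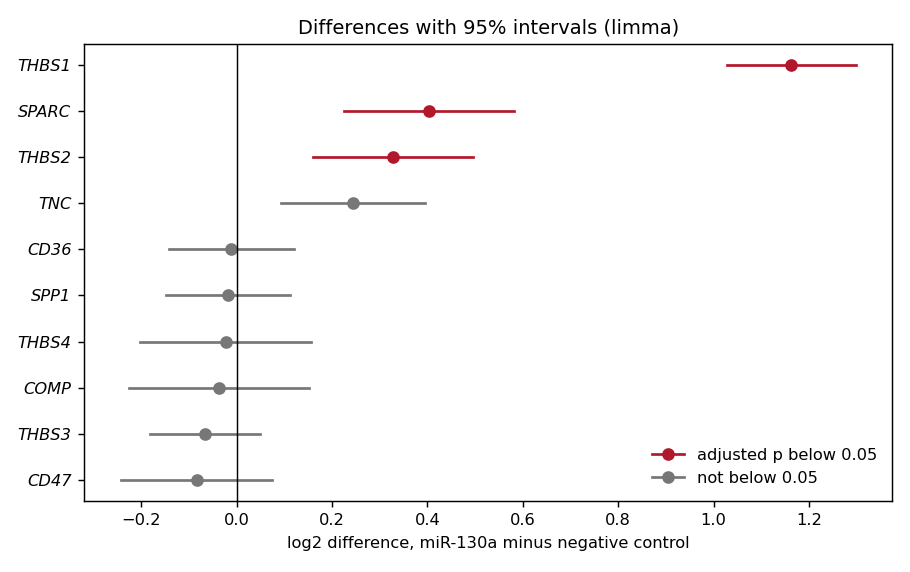
Difference in mean log2 expression, miR-130a minus negative control (x axis), with its 95% interval from limma, for each gene in order of size; red genes have an adjusted p below 0.05. THBS1 stands at 1.16, SPARC, THBS2 and TNC lie between 0.24 and 0.40 with intervals above 0, and the intervals of the other 6 genes span 0.

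**Figure D3:**
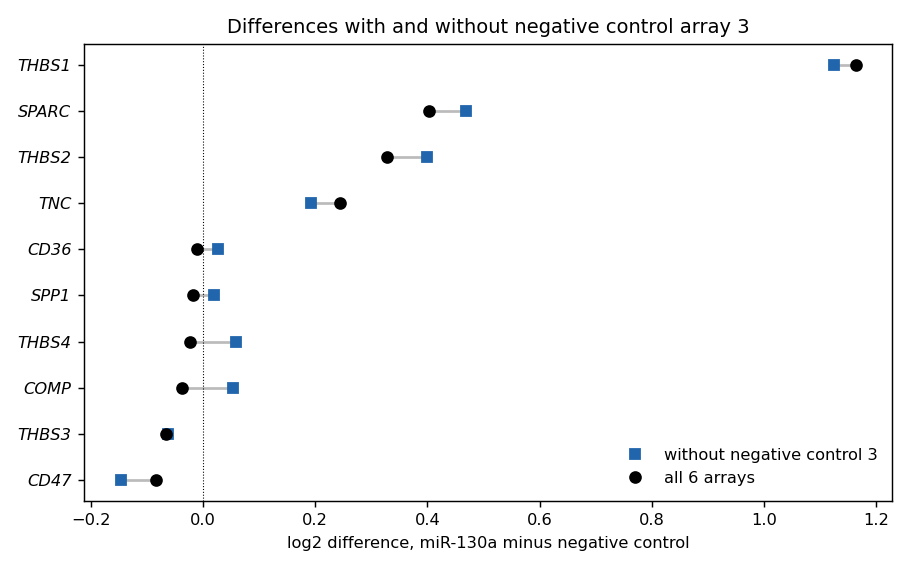
Difference in mean log2 expression, miR-130a minus negative control (x axis), computed without negative control array 3 (blue squares) and with all 6 arrays (black circles). THBS1 is at 1.12 without the array and 1.16 with it, and THBS4, COMP, SPP1 and CD36 change sign within 0.1 of 0.

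The windows of 250 bases upstream of the gene start are shown for the 4 genes whose arms did not overlap, because these are the genes whose values were higher on every miR-130a array. Capitals mark matches on either strand to the motifs searched: TATAAA as found in promoters read by TBP, CCAAT as bound by NF-Y, GGGCGG as bound by SP1 (the GC box), GGAATG as bound by TEAD factors, TGANTCA as bound by AP-1, TGACGTCA as bound by CREB, and CACGTG as bound by MYC and USF (the E-box). In THBS1 a reversed CCAAT and a GC box adjoin, and no other matches in the windows shown touch. The motifs were chosen after the values and the THBS1 sequence had been seen.
THBS1, GRCh38.p14 chr15:39580829-39581078, plus strand: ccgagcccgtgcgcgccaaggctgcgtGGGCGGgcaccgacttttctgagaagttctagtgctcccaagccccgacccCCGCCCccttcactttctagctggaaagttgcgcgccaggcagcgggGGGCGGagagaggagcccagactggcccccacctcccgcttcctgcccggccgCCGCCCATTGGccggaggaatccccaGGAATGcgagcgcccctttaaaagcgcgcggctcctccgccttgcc
THBS2, GRCh38.p14 chr6:169253847-169254096, minus strand: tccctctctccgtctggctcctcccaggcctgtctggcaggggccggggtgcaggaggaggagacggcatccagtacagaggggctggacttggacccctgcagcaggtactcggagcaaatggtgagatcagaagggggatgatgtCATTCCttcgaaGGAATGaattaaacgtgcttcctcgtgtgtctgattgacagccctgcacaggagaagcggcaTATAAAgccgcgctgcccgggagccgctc
SPARC, GRCh38.p14 chr5:151686916-151687165, minus strand: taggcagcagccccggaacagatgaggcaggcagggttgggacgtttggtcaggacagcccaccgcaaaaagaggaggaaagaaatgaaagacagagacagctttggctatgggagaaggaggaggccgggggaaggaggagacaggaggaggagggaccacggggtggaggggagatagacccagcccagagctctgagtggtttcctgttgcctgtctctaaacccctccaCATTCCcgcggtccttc
TNC, GRCh38.p14 chr9:115118158-115118407, minus strand: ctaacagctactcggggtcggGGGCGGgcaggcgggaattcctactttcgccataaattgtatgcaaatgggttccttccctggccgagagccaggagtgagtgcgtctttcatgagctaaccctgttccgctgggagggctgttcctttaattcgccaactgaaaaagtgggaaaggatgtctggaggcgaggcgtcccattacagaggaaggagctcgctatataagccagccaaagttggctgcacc

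GGAATG occurred in the windows of THBS1 (bases -46 to -41 from the start), THBS2 (a reversed match at -103 to -98 and a direct one at -91 to -86) and SPARC (reversed, -17 to -12). It also occurred in COMP and in 1 window of CD36, neither of which passed the test, and not in TNC, THBS3, THBS4, SPP1 or CD47. In all, 5 of the 17 windows of the 10 genes held it, against 11.9% of 35116 windows of the reference. THBS1 had 4 GC boxes, a motif found in 7 of the 17 windows and in 42.6% of all windows. THBS2 had a TATAAA at -29 to -24, a motif in 3 of the 17 windows and in 10.7% of all. CCAAT was present in 4 of the 17 windows (32.0% of all), the AP-1 motif in 1, of CD36 (6.57%), the E-box in 1, of THBS4 (6.34%), and TGACGTCA in 0 (1.65%). A match is a run of letters and no evidence of binding.

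Of 21 other matricellular genes measured, 2 rose, 1 fell and 18 did not pass (limma), with a median difference of 0.02. The shares over all genes were 2.48% higher and 1.74% lower. Like the lists in the paragraphs below, this list was chosen with earlier results of these data known, so nothing is read from their shares. CCN1, an integrin ligand also known as CYR61, was at 8.99, 9.01 and 8.93 with miR-130a and at 8.05, 8.06 and 8.10 in controls, 1.88-fold higher (SE 0.049, adjusted p = 0.000304). CCN2, the connective tissue growth factor, was 1.51-fold higher (difference 0.59, SE 0.060, adjusted p = 0.00307), and both passed in every alternative setting run. SPOCK1, a testican proteoglycan with a SPARC-like domain, was at 8.44, 8.51 and 8.44 with miR-130a and at 8.96, 8.83 and 8.85 in controls. It was 1.33-fold lower (difference -0.42, adjusted p = 0.00935) and did not pass with miR-130a array 1 or 3 left out (adjusted p = 0.0678 and 0.0658) or when every row of the table was tested (0.0536). DMP1, a bone matrix protein, was dim and did not pass (difference 0.17, adjusted p = 0.116). It passed in 1 of 14 alternative settings, with array weights (adjusted p = 0.0232). SPARCL1, the closest relative of SPARC, differed by -0.01, and the tenascins TNN and TNR by 0.04 and 0.02, none passing. The tenascin TNXB was at 7.85, 7.81 and 7.81 with miR-130a and at 8.13, 8.04 and 7.88 in controls. Its arms did not overlap, as in 11.9% of all genes in that direction, and negative control 3 was the nearest control. The difference of -0.19 did not pass (adjusted p = 0.206), and that without negative control 3 is not given here. These relatives were named after their values were seen.

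Of 26 receptors and partners, 4 rose, 1 fell and 21 did not pass (limma), with a median difference of 0.06. Over all genes 2.48% rose and 1.74% fell, and nothing is read from the share of this list. ITGB8, the beta subunit that with alpha V frees latent TGF-beta, was at 7.61, 7.65 and 7.59 with miR-130a and at 7.19, 7.13 and 6.94 in controls, 1.44-fold higher (adjusted p = 0.00904). ITGAV, the alpha V subunit shared by several receptors of osteopontin and thrombospondins, was at 9.84, 9.77 and 9.92 with miR-130a and at 9.56, 9.52 and 9.36 in controls, 1.28-fold higher (adjusted p = 0.0341). EGFR, the receptor of epidermal growth factor, was 1.30-fold higher (adjusted p = 0.0135) and SDC4, a heparan sulfate proteoglycan of focal adhesions, 1.21-fold higher (adjusted p = 0.0263). LTBP1, which tethers latent TGF-beta to the matrix, was at 9.04, 9.02 and 8.99 with miR-130a and at 9.48, 9.47 and 9.31 in controls, 1.32-fold lower (adjusted p = 0.0123). ITGAV lies outside the rule for named genes and was added after its value was seen. CD44 and ITGB1, which bind osteopontin and many matrix proteins, differed by 0.02 and -0.01 (adjusted p = 0.934 and 0.984), and were also named after their values were seen.

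Without negative control 3 the differences of ITGB8, ITGAV, EGFR, SDC4 and LTBP1 were 0.46, 0.30, 0.33, 0.29 and -0.46. With all arrays they were 0.53, 0.36, 0.38, 0.28 and -0.40. Each of these 5 calls was lost in some fits with 1 array fewer. ITGB8 was lost with miR-130a array 1 or 3 left out (adjusted p = 0.0522 and 0.051), EGFR without any 1 of the miR-130a arrays (0.0707 to 0.0833), LTBP1 without these or negative control 1 (0.0589 to 0.0823), and ITGAV and SDC4 without any array other than negative control 3 (0.063 to 0.163).

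Among proteins that carry thrombospondin type 1 repeats, 1 of 33 measured rose and 0 fell by limma, against 2.48% and 1.74% of all genes. At an unadjusted p below 0.05, 2 were higher and 1 lower (16.5% of all genes in either direction), and the median difference was -0.01. ADAMTS1, a protease that cleaves versican, was at 7.77, 7.79 and 7.78 with miR-130a and at 7.41, 7.53 and 7.36 in controls, 1.27-fold higher (adjusted p = 0.0192). It missed the threshold without miR-130a 1, miR-130a 2, miR-130a 3 or negative control 1 (adjusted p = 0.102, 0.0965, 0.11 and 0.0843). Its difference was 0.31 without negative control 3, against 0.34 with all arrays. ADAMTSL3, the guidance receptor SEMA5A and the netrin receptor UNC5D differed by -0.15, 0.18 and 0.11 and did not pass (adjusted p = 0.236, 0.279 and 0.305). SEMA5A passed in 2 of 15 alternative settings, without negative control 3 (adjusted p = 0.0181) and with array weights (0.0132). The differences of the 33 genes ranged from -0.15 to 0.34.

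Of 15 matrix ligands measured, 2 rose, 0 fell by limma (0 also at an unadjusted p below 0.05) and 13 did not pass, with a median difference of 0.05. Among all genes 2.48% rose and 1.74% fell, and nothing is read from the share of this list. Fibronectin (FN1) was at 8.64, 8.61 and 8.59 with miR-130a and at 8.21, 8.14 and 7.95 in controls, 1.43-fold higher (adjusted p = 0.00971), and was lost with miR-130a array 1 or 3 left out (adjusted p = 0.0613 and 0.0548). The proteoglycan versican (VCAN), a substrate of ADAMTS1, was at 6.67, 6.59 and 6.63 with miR-130a and at 6.38, 6.20 and 6.02 in controls, 1.35-fold higher (adjusted p = 0.0424), and passed without negative control 1 or negative control 3 but not without any other array (adjusted p = 0.101 to 0.17). The differences of FN1 and VCAN were 0.44 and 0.34 without negative control 3, against 0.51 and 0.43 with all arrays. Fibrillin-1 (FBN1) and perlecan (HSPG2) were 0.31 and 0.16 higher and did not pass (adjusted p = 0.0913 and 0.18). FBN1 passed in 3 of 15 alternative settings. These were without negative control 3 (difference 0.22, adjusted p = 0.0366), with array weights (0.0225) and with the trended, robust variance prior (0.0498). COL1A1, a collagen chain that SPARC binds, differed by 0.14 (adjusted p = 0.4995), a gene named after its value was seen.

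**Figure D4:**
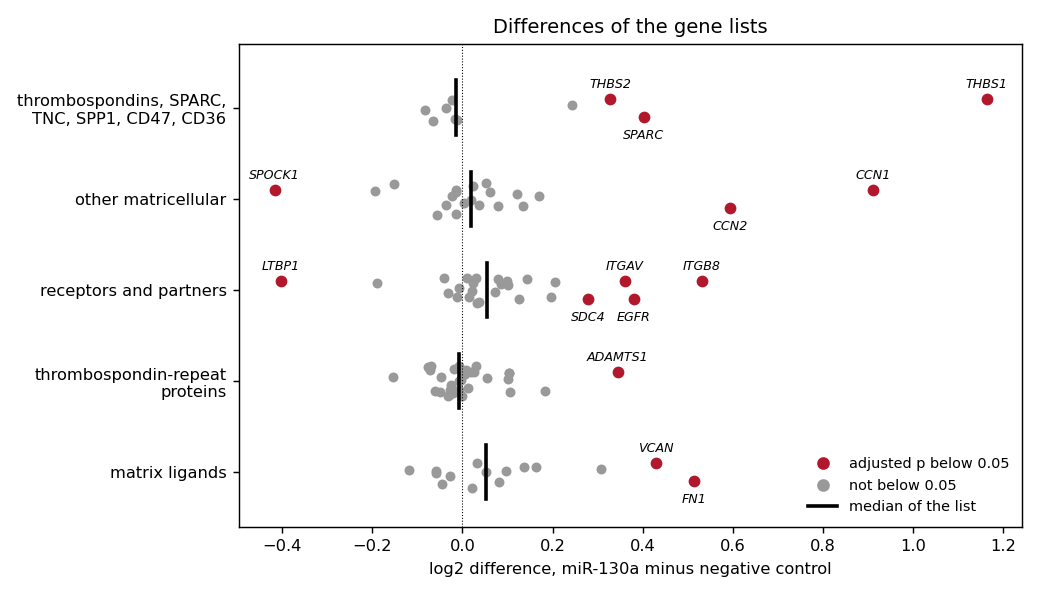
Difference in log2 expression, miR-130a minus negative control (x axis), of every measured gene of 5 lists (rows; vertical position within a row has no meaning), with genes at an adjusted p below 0.05 in red and named, and the median of each list as a black bar. The medians lie between -0.01 and 0.06, and THBS1 and CCN1 lie farthest to the right.

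The genes whose pattern over the 6 arrays was most like that of THBS1, among 11231 other genes above the median gene level, were TRIM39, IFRD1, TANC1, MMP1 and CUL4A, at Pearson r = 0.9992, 0.9987, 0.9984, 0.9983 and 0.9982. These 5 values describe likeness over arrays that fall into 2 arms. The differences were 0.18, 0.74, 0.47, 1.52 and 0.11, and among them MMP1, the interstitial collagenase, changed by more than THBS1.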

How the data were processed

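Total RNA of 6 PC3 cultures (3 transfected with miR-130a, 3 with negative control) was measured on Affymetrix arrays. Per the submitters' processing notes, the authors used Affymetrix Expression Console and its RMA method (no versions named) to make the deposited log2 values. That the scale is log2 was taken from the range of the values; the sources used here state no build for the array annotation. Of 70753 rows, 67528 held values, and 23781 of these carried 1 gene symbol in GEO's platform annotation; symbols were updated through Entrez identifiers (21497 rows matched, GRCh38.p14). The row with the highest mean represented a gene. The arms were compared with limma 3.58.1 (R 4.3.3), as miR-130a minus negative control. Tests were two-sided and adjusted by Benjamini-Hochberg over 22465 genes, and SE and intervals are limma's. The procedure was also run on simulated data, with independent noise of the same spread on every array for each gene. No simulated array deviated as negative control 3 did, so that run does not cover such an array, and no outcome of it is used here. No detection calls were used, so dimness was judged from the level of a row, and the number of arrays limits the precision. That the arrays are separate cultures rests on the series' wording; p-values measure the spread between these arrays only.

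The 10 genes and the other lists were chosen with earlier results of these data known. Named genes were the 10, the 4 genes of each other list with the smallest p, and the 5 genes most correlated with THBS1. SIRPA, the overlapping genes FSIP1 and MTX1 and the cell type markers were named outside this rule, and other exceptions are marked. Alternatives tried were blocking on the replicate number (fixed, random), dropping rows at or below the median level, quantile normalization again, centring arrays on their medians, averaging a gene's rows, testing every row, array weights, a trended and robust prior, and omitting each array. The array weights were shared by all genes and estimated with limma's gene-by-gene method. Genes of the lists without a row of their own, FSTL1 and SPON2 among them, were not analysed here, and some items are not reported here.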

Additional observations from a re-analysis of the deposited data

How the results depend on the processing

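Among the 10 genes, the call of THBS1 held in all 15 alternatives. The number called, 3, was 1 when every row was tested and ranged from 1 to 3 when 1 array was left out. It was 4 after the second quantile normalization, with array weights and with the trended and robust prior. The count over all genes, 950 (58.7% higher), was 3065 with array weights, 1449 with the trended and robust prior, 520 after median centring (384 higher and 136 lower, 73.8% higher, against 558 and 392), and ranged from 237 to 2252 when 1 array was left out. With all 67528 rows tested, 448 rows passed, among them those of 277 of the 22465 genes; of the called genes named, THBS1, CCN1, CCN2, ITGB8 and FN1 passed there and THBS2, SPARC, SPOCK1, LTBP1, EGFR, SDC4, ITGAV, ADAMTS1 and VCAN did not. Matrix ligands gave 1 call after median centring, after the second quantile normalization and with every row tested, 4 with array weights, and 0 to 5 with 1 array left out. Other matricellular genes gave 5 with array weights and 2 to 4 with 1 array left out. Receptors and partners gave 1 with every row tested, 3 after median centring and 0 to 7 with 1 array left out (limma; in the fits with 0, without miR-130a 1 or miR-130a 3, 7 had an unadjusted p below 0.05). Thrombospondin-repeat genes gave 0 with every row tested (1 at an unadjusted p below 0.05) and after median centring (3 at an unadjusted p below 0.05), 2 with array weights and 0 to 2 with 1 array left out. Testing every row changed both the adjustment and the variance prior, and which of them moved the calls was not tested. The cause of the other moves was not tested either. Differences near 0 changed sign: SPP1 and CD36 were 0.0132 and 0.0118 after the second quantile normalization, 0.00388 and 0.0101 after median centring, and THBS4, COMP, SPP1 and CD36 were 0.0362, 0.0326, 0.0326 and 0.0207 with array weights. With 1 array left out they ranged from -0.0824 to 0.0594 for THBS4, -0.0937 to 0.0537 for COMP, -0.0542 to 0.02004 for SPP1 and -0.0398 to 0.027 for CD36. The labels do not say whether equal array numbers share an experiment. Deviations of same-numbered arrays from their arm means correlated at -0.0674, 0.0585 and 0.0893. Those of differently numbered arrays correlated at -0.148 to 0.159, and not every array correlated best with its own number. With so few arrays per arm, these values cannot decide whether the arms are paired. With the replicate number as a fixed block 818 genes and 2 of the 10 passed, THBS2 and SDC4 being lost (adjusted p = 0.0628 and 0.0565), and as a random block 959 and 3.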
